A study of Mus musculus with 2 samples.

Results

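The 10 genes described here are 5 genes of the CCN family (Ccn1, Ccn2, Ccn3, Ccn4 and Ccn5) and 5 genes of the YAP/TAZ pathway (Yap1, Wwtr1, Tead1, Amotl2 and Ankrd1). They were chosen by symbol from the 32285 genes of the deposited count tables, and their unique molecular identifiers (UMIs, each standing for 1 captured RNA molecule) were summed per cell type and library. The cells came from the Achilles tendon enthesis, the site where tendon joins bone, of SKG mice, which carry a Zap70 mutation and are prone to autoimmune arthritis. There was 1 droplet library from mice under tail suspension, which takes the load off the hind limbs, and 1 library from mice under non-tail suspension. Both groups share the SKG background, and the age, sex and number of mice and the length of suspension are not given in the sources used here. With 1 library per group nothing here could be tested over animals, and suspension cannot be told apart from any other difference between the 2 libraries.

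CCN proteins are secreted matricellular proteins that bind integrins, proteoglycans and growth factors in the matrix. YAP (Yap1) and TAZ (Wwtr1) are transcriptional co-activators that enter the nucleus when cells spread or are under tension and the Hippo kinases are inactive. There they bind TEAD factors on DNA, and Ccn1, Ccn2, Ankrd1 and Amotl2 are among the targets most often used to read this pathway. In tendon, Ccn2 is known as a growth factor-like protein of fibroblasts and their progenitors.

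RefSeq start sites on GRCm38.p6 were at hand for Ccn1, Yap1, Wwtr1, Amotl2 and Ankrd1, which is 5 of the 10 genes, and the 250 bases before each were searched for CATTCC on both strands (GGAATG on the other strand), the core of the TEAD motif. All 5 held it, as did 12.6% of the 32851 promoters of the same length and 14.4% of the 27025 genes. A match is a description of letters, not a bound site. The window before Ccn1 (chr3:145649986-145650235, minus strand) is printed whole because Ccn1 is the 1 CCN gene among these 5. Capitals mark the TEAD core, which lies 103 to 98 bases before the start.
Ccn1: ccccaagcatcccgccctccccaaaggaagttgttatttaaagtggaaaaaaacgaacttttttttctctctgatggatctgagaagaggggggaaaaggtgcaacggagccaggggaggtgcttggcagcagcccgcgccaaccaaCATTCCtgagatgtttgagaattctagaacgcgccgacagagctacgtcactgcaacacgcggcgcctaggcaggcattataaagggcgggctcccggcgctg

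For the other matched genes the 30 bases around each TEAD core are shown, so that their flanks can be read against those of Ccn1. They are at chr9:8004720-8004749 (minus strand) for Yap1, chr3:57576029-57576058 (minus strand) for Wwtr1, chr9:102717727-102717756 (plus strand) for Amotl2, and chr19:36120037-36120066 and chr19:36119950-36119979 (minus strand) for Ankrd1. The cores of Amotl2 and Ankrd1 also lie inside exons that GENCODE gives to longer transcripts of these genes.
Yap1: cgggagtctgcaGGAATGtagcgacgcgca
Wwtr1: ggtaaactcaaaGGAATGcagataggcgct
Amotl2: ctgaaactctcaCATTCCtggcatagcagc
Ankrd1 (far): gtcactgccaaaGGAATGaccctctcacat
Ankrd1 (near): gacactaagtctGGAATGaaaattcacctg

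After filtering, 10819 cells of the non-tail suspension library and 13991 cells of the tail suspension library were kept, with 118086547 and 156480780 UMIs. Of 32 clusters, 9 had fibroblast genes in the lead and no more than 100 CPM (UMIs per 1000000 UMIs of the class) of Ptprc, the leukocyte marker CD45, and are pooled here as the fibroblast lineage, with 1990 and 6404 cells. All 11 general fibroblast markers were detected in it in both libraries, at a summed 66308 CPM in non-tail suspension and 41057 CPM in tail suspension. Sheath or lining markers summed to 6132 and 32617 CPM and erythroid markers to 71.2 and 1341 CPM, and the part of these shifts in the pooled ratios below was not tested. The lineage was made up differently in the 2 libraries. Cluster 0 (tendon fibroblast-like, led by Fmod) held 44.1% of its cells in non-tail suspension and 1.97% in tail suspension, and cluster 1 (inflammatory fibroblast-like, led by Hp and Cxcl5) held 31.2% and 10.1%. In tail suspension most cells lay in cluster 22 (interstitial-like, led by Lpl and Ccl11), cluster 4 (sheath or lining-like, with Prg4), cluster 19 (tendon fibroblast-like, led by Angptl7) and cluster 21 (adventitial-like, with Pi16). Cluster 19 was also led by the tendon markers Fmod and Tnmd and by Myoc and Sfrp4, which are markers of another fibroblast class. Cluster 20, tendon fibroblast-like and led by Chad and Clu, is the remaining named cluster compared, and cluster 25 is an unnamed cluster of low depth. Median depth per lineage cell was 23962.5 UMIs in non-tail suspension and 11105 in tail suspension. Pooled levels and ratios of the 10 genes are therefore given beside values within clusters, and those of gene lists beside medians within clusters. Shares of cells with a UMI and the spread of UMIs over cells are mostly given for the pooled lineage alone. The part of cluster make-up in those was not tested.

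**Figure D1:**
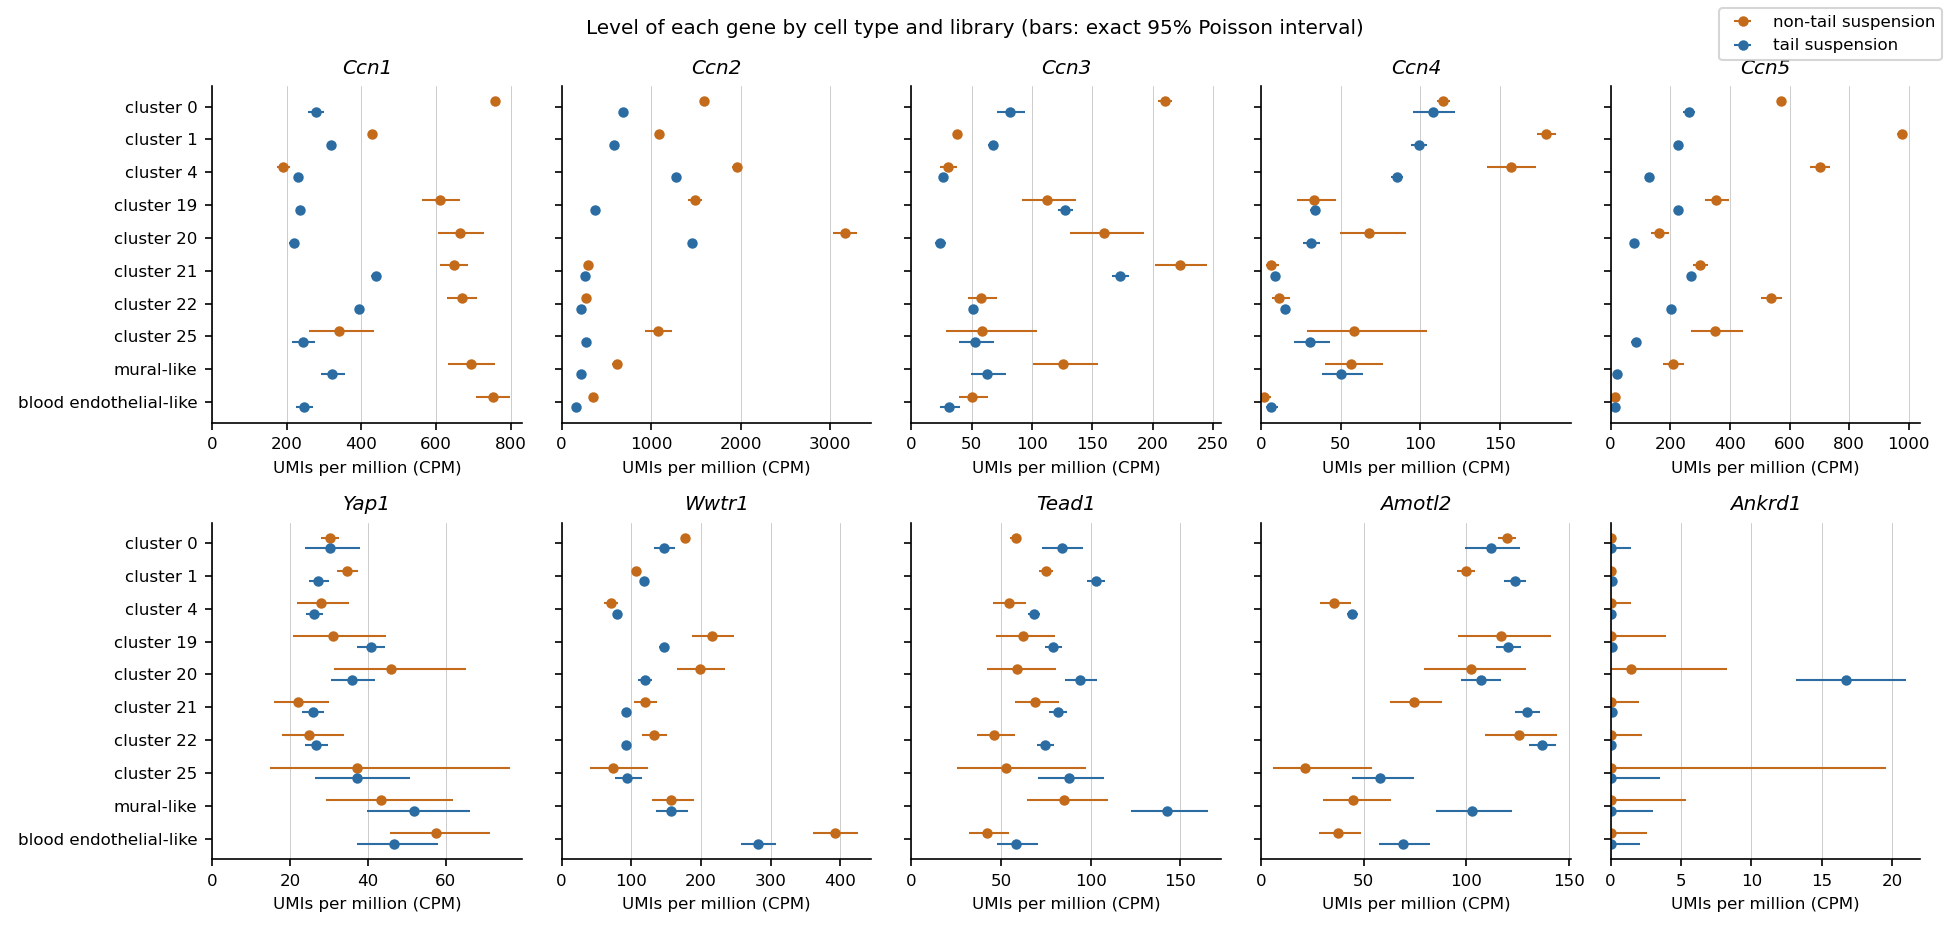
Level of each gene, in CPM (horizontal axes, linear and different for each gene), in 8 fibroblast clusters and 2 vessel classes. Orange points are the non-tail suspension library and blue points the tail suspension library, with exact 95% Poisson intervals; Ccn2 and Ccn5 have the orange point to the right in all 8 fibroblast clusters, while Yap1 intervals mostly overlap.

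Ccn2 (connective tissue growth factor, chromosome 10:24595442-24598683 on GRCm38) and Ccn5 were lower in tail suspension in the pooled fibroblast lineage and in each of its 8 clusters with at least 40 cells in both libraries. In the pooled lineage Ccn2 stood at 1344 CPM (67466 UMIs) in non-tail suspension and 677 CPM (58287 UMIs) in tail suspension. The log2 ratio, always the tail suspension level divided by that of the other library, was -0.99 (exact conditional 95% interval -1.004 to -0.97), which is 1.98-fold lower. These intervals, like all others given here, cover counting error only and not the spread between animals.

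Within clusters, the Ccn2 ratio ran from -2.001 in cluster 19 (1490 and 372 CPM) to -0.20 in cluster 21 (295 and 257 CPM), and 4 of 8 clusters were past 2-fold. Without the richest cell of each library it was still lower in 8 of 8 clusters and past 2-fold in 4. In cluster 21 it was then -0.08 with an interval that held 0, as was Ccn5. Ccn2 levels differed widely between clusters. The order in non-tail suspension was cluster 20 at 3169 CPM, cluster 4 at 1958, cluster 0 at 1588 and cluster 19 at 1490, each with an interval clear of the next, and clusters 21 and 22 were at 295 and 268 with overlapping intervals. In tail suspension clusters 20, 4 and 0 were again first, at 1461, 1274 and 682 CPM, but the inflammatory-like cluster 1 (580 CPM) lay above cluster 19 (372 CPM). Cluster 4 alone gave 50.7% of the lineage's Ccn2 UMIs in tail suspension and 7.48% in non-tail suspension, where cluster 0 gave 54.9%. A gene on the other strand, Gm15270, overlaps Ccn2 and is counted in the files.

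Ccn5 (chromosome 2:163820861-163833146) encodes the CCN protein without the C-terminal cysteine-knot domain. It had the lowest ratio of the 10 genes in the lineage, with 709 CPM (35613 UMIs) in non-tail suspension and 194 CPM (16679 UMIs) in tail suspension. The log2 ratio was -1.87 (-1.90 to -1.85), or 3.66-fold lower. Within clusters it was past 2-fold in 6 of 8, or 5 of 8 without the richest cell of each library. The lowest ratio was in cluster 4, where 701 CPM stood against 129 CPM (-2.44), followed by cluster 1, where 976 CPM stood against 226 CPM (-2.11). The highest was in the Pi16 cluster 21, where 300.1 and 269.9 CPM differed by -0.15 (-0.28 to -0.02). Cluster 1 had the highest Ccn5 level in non-tail suspension, while in tail suspension clusters 21 and 0 led at 269.9 and 263 CPM with overlapping intervals.

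Ccn1 (CYR61, an immediate-early matricellular protein, chromosome 3:145646976-145649981) was lower in the pooled lineage, at 591 CPM in non-tail suspension and 303 CPM in tail suspension. The ratio was -0.97 (-0.99 to -0.94), a 1.95-fold difference just inside the 2-fold line, on 29696 and 26059 UMIs. It was lower in 7 of 8 clusters and past 2-fold in 3 of them, clusters 0 (-1.45), 19 (-1.38) and 20 (-1.60), all named tendon-like. The exception was the lining-like cluster 4, where Ccn1 was at 191 CPM in non-tail suspension and 230 CPM in tail suspension (0.27, interval 0.14 to 0.40). In non-tail suspension 7 of the classes, vessels included, lay between 611 and 758 CPM, and cluster 4 was the lowest. In tail suspension the lymphatic endothelial-like class led at 554 CPM, then cluster 21 at 438 and cluster 22 at 394.

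Ccn4 (WISP1, described as a WNT-inducible CCN protein, chromosome 15:66891320-66923201) stood at 131 CPM in the pooled lineage of non-tail suspension and 55.6 CPM in tail suspension, a ratio of -1.24 (-1.29 to -1.19). The pooled ratio was lower than that of any of the 8 clusters. The unweighted mean over the clusters with at least 50 cells per library was -0.27, 5 clusters were lower and 3 higher, and 1 was past 2-fold. The 3 higher were clusters 19 (0.02), 21 (0.46) and 22 (0.40), with only 31, 12 and 19 UMIs in non-tail suspension. They count fully in that mean and draw it towards 0. In cluster 0 the levels were 115 and 108 CPM (-0.08, interval -0.27 to 0.10). Cluster 1 had 179 and 99.0 CPM (-0.86), and cluster 4 had 157 and 85.4 CPM (-0.88). Cluster 25 had 58.3 and 30.5 CPM on 11 and 32 UMIs (-0.93, interval -1.96 to 0.20), and was at -1.04 without the richest cell of each library. In clusters 21 and 22 the level was only 6.49 to 15.3 CPM. Cluster 20, at 68.1 and 31.2 CPM (-1.13), was past 2-fold with all cells and at -0.85 without the richest cell of each library.

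Ccn3 (NOV, a CCN protein often described as growth-restraining, chromosome 15:54745702-54754039) was at 128 CPM in the pooled lineage of non-tail suspension and 76.6 CPM in tail suspension (-0.74, interval -0.79 to -0.69). Cluster 0 alone gave 76.2% of its lineage UMIs in non-tail suspension and 3.11% in tail suspension, and without cluster 0 the pooled ratio turned to 0.43. Within cluster 0 Ccn3 was at 210 and 81.9 CPM (-1.36). In cluster 1 it went the other way, with 37.9 CPM in non-tail suspension and 67.5 CPM in tail suspension (0.83, interval 0.69 to 0.97). In cluster 20 the ratio of -2.74 rested on a single cell, which held 101 of the 108 UMIs in non-tail suspension. Without the richest cell of each library the ratio there was 0.86 (-0.24 to 2.22). Over the 8 clusters Ccn3 was lower in 6 and higher in 2 with all cells, and lower in 3 and higher in 5 without those cells. The Pi16 cluster 21 had the highest Ccn3 in both libraries, at 223 and 173 CPM. In non-tail suspension its interval overlapped that of cluster 0, at 210 CPM.

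**Figure D2:**
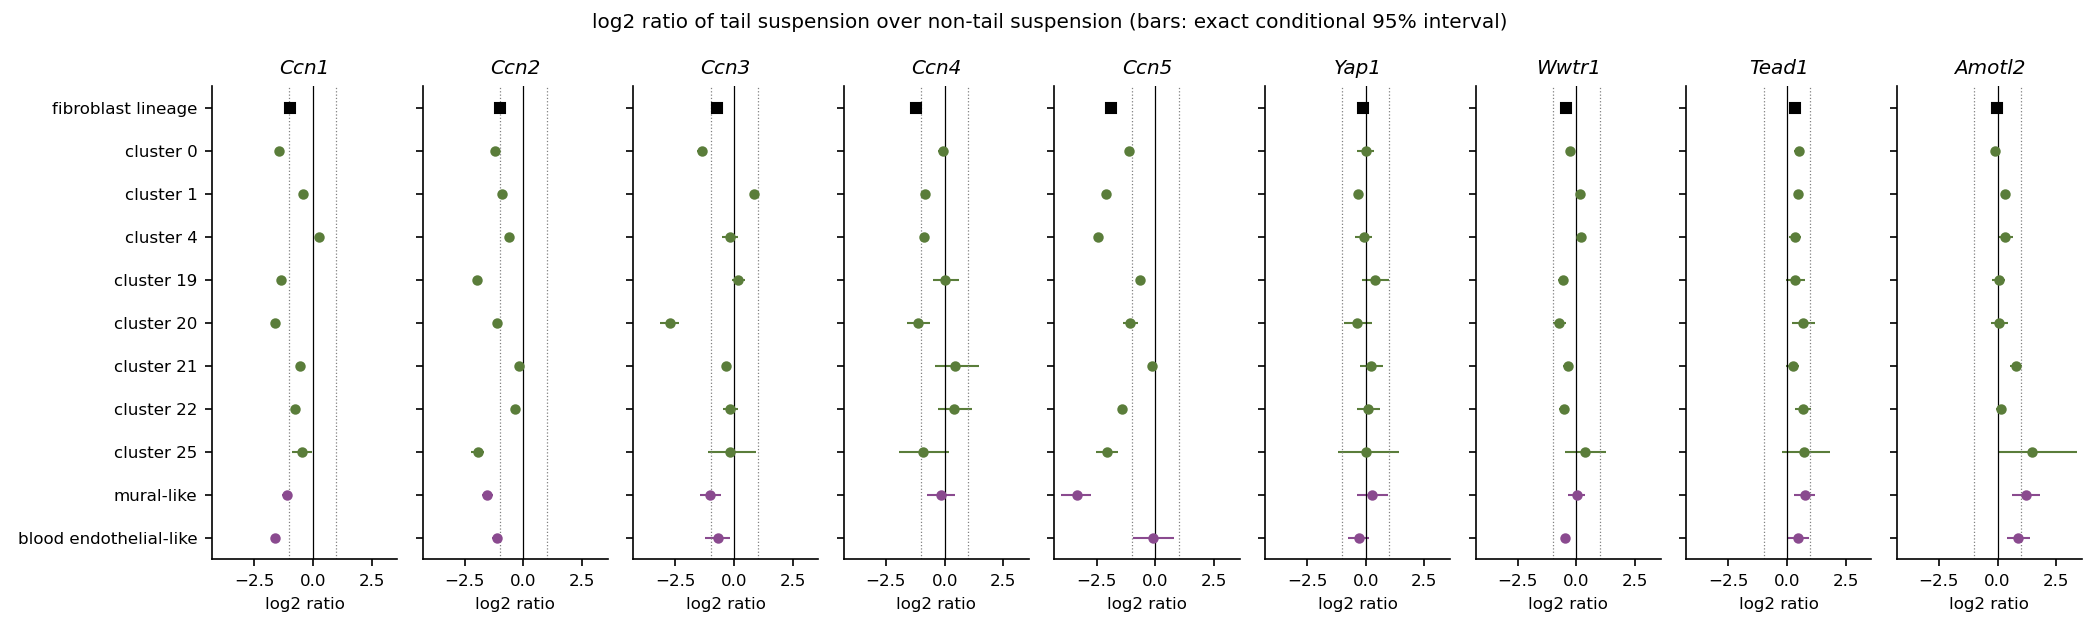
Log2 ratio, tail suspension divided by non-tail suspension (horizontal axes, the same for all genes) in the pooled fibroblast lineage (black squares), 8 fibroblast clusters (green) and 2 vessel classes (purple), with exact conditional 95% intervals; dotted lines mark 2-fold. Ccn2 and Ccn5 lie left of 0 in all 8 fibroblast clusters and Tead1 lies right of 0 in all 8, while Ccn3 lies at 0.83 in cluster 1 and -2.74 in cluster 20. Ccn4 in blood endothelial-like cells, with under 20 UMIs, and Ankrd1 are not drawn.

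Neither transcriptional co-activator was past 2-fold in any cluster. Yap1 (chromosome 9:7931999-8004596) stood at 31.5 CPM (1584 UMIs) in the lineage of non-tail suspension and 29.3 CPM (2525 UMIs) in tail suspension, a ratio of -0.10 (-0.20 to -0.01). It was lower in 3 clusters and higher in 5, between -0.35 in cluster 20 and 0.39 in cluster 19. Cluster 1 was the only one of the 8 whose interval left out 0, at -0.34 (-0.52 to -0.17). Gm20416 on the other strand overlaps Yap1 and is counted in the files.

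Wwtr1, which encodes TAZ (chromosome 3:57455649-57575910), was at 142 CPM and 105 CPM in the lineage (-0.44, interval -0.49 to -0.40). It was lower in 5 clusters and higher in 3, down to -0.73 in cluster 20, and no cluster was past 2-fold. Its highest level lay in vessels, with 392 CPM in blood endothelial-like cells of non-tail suspension and 282 CPM in tail suspension. The lowest named cluster in both libraries was the lining-like cluster 4, at 70.2 and 79.8 CPM.

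Tead1, which encodes a DNA-binding partner of YAP and TAZ (chromosome 7:112679318-112906807), went the other way from Ccn2 and Ccn5. Its lineage level was 64.4 CPM (3236 UMIs) in non-tail suspension and 81.4 CPM (7009 UMIs) in tail suspension, a ratio of 0.34 (0.28 to 0.40). All 8 clusters were higher in tail suspension, from 0.24 in cluster 21 to 0.73 in cluster 25, and none was past 2-fold. Without the richest cell of each library all 8 were still higher, with cluster 25, where non-tail suspension had only 10 UMIs, at 1.29. The interval left out 0 in clusters 0 (0.53), 1 (0.45), 4 (0.33), 20 (0.67) and 22 (0.69). The overlapping gene 2310014F06Rik, on the other strand, is counted in the files as well.

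Amotl2 encodes an angiomotin that holds YAP and TAZ at junctions and is itself a target of the pathway (chromosome 9:102716672-102733418). It did not differ beyond counting error in the pooled lineage, at 106 CPM in non-tail suspension and 103 CPM in tail suspension (-0.04, interval -0.09 to 0.01). Within clusters it was higher in 7 of 8, though by only 0.04, 0.07 and 0.13 in clusters 19, 20 and 22. The mean over the clusters with at least 50 cells per library was 0.42, which includes cluster 25 at 1.46. The Pi16 cluster 21 had 74.6 and 129.7 CPM (0.80, interval 0.55 to 1.06) and cluster 1 had 99.8 and 123 CPM (0.31, interval 0.22 to 0.40). Cluster 25 was past 2-fold (1.46) on only 4 UMIs in non-tail suspension. The pooled sign is thus not settled: it was the same in 9 of 20 other ways of processing.

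Ankrd1, which encodes a stretch-responsive cardiac and muscle ankyrin repeat protein (chromosome 19:36111961-36120099), was almost absent. The lineage held 2 UMIs in 2 cells in non-tail suspension and 78 UMIs in 13 of 6404 cells in tail suspension. A single cell held 59 of those 78 UMIs, and the next highest held 5. The ratio of the sums was 4.51 (2.61 to 7.58), and without that cell 19 UMIs were left in tail suspension. The tendon-like cluster 20 held 96.2% of the UMIs, in 10 of its 606 cells (1.65%, Clopper-Pearson interval 0.79% to 3.01%). In non-tail suspension 1 of its 43 cells had a UMI. No UMI was seen in mural-like or endothelial-like cells of either library.

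**Figure D3:**
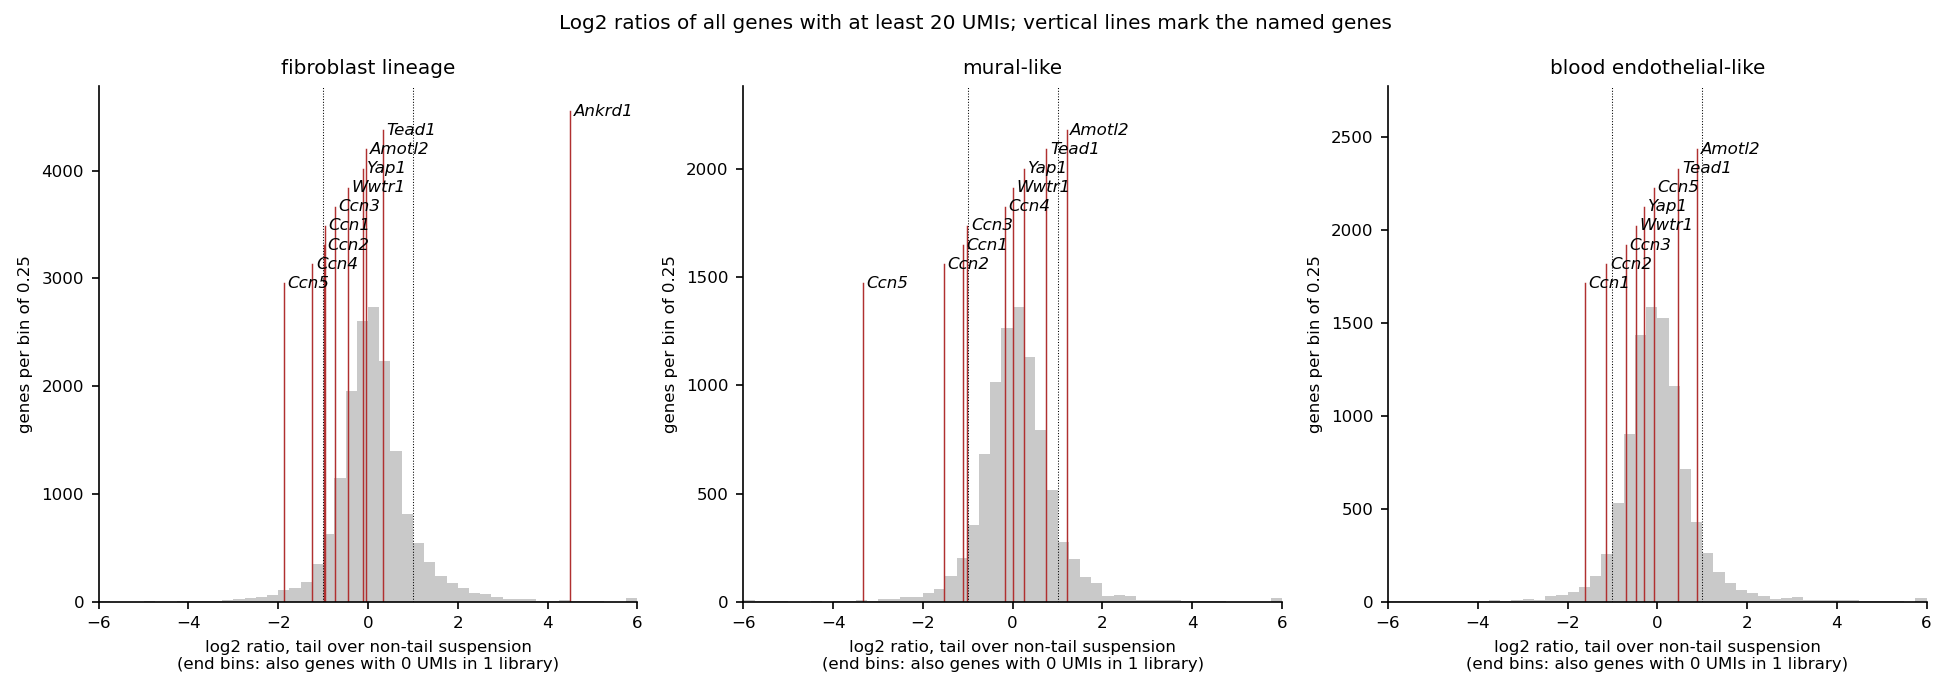
Number of genes per bin of log2 ratio (tail suspension divided by non-tail suspension) in 3 cell classes, for genes with at least 20 UMIs over both libraries; red lines mark the CCN genes and YAP/TAZ effectors measured there and dotted lines 2-fold. The CCN genes lie left of the centre in the fibroblast lineage, Ccn5 lies at -3.34 in mural-like cells, and Ankrd1 at 4.51 rests mainly on 1 cell.

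Set against all genes of the lineage, the 10 genes, all of which were measured there, had 8 lower and 2 higher ratios, a median of -0.59 and a range from -1.87 to 4.51. The 8 lower ones include Amotl2, whose interval held 0. Over the 16292 genes with at least 20 UMIs the median was 0.07, with 44.8% lower and 55.2% higher. Ccn4 and Ccn5, 2 of the 10, were more than 2-fold lower, beside 6.00% of all genes, and Ankrd1 was more than 2-fold higher, beside 11.1%. Ccn1 and Ccn2 lay just inside the line.

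In 7 of the 8 clusters, more of the 9 or 10 measured genes were past 2-fold downwards than upwards. In cluster 0 they numbered 4 (Ccn1, Ccn2, Ccn3 and Ccn5), beside 9.19% of its genes, with none higher beside 6.59%. In cluster 20 they numbered 5, all of them CCN genes, beside 6.04%, with Ankrd1 higher beside 15.7%. Of these 5, Ccn3, Ccn4 and Ccn5 were no longer past 2-fold without the richest cell of each library. In cluster 19 they were Ccn1 and Ccn2, beside 6.61%, with none higher beside 13.8%, and in cluster 25 Ccn2 and Ccn5, beside 10.2%, with Amotl2 higher beside 16.9%. Clusters 1, 4 and 22 had Ccn5 alone, beside 6.68%, 5.89% and 7.03%, and no gene higher, beside 9.12%, 11.2% and 9.33%. The Pi16 cluster 21 had no member past 2-fold in either direction, beside 6.79% lower and 7.76% higher.

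The vessel classes rested on far fewer cells. Mural-like cells, the pericytes and smooth muscle of vessel walls, numbered 45 and 136, and blood endothelial-like cells 87 and 169. Their own 15 markers were all detected in both libraries. Mural-like cells also carried the 11 general fibroblast markers at a summed 40487 CPM in non-tail suspension and 33225 CPM in tail suspension, against 2879 and 4483 CPM in blood endothelial-like cells. The 10 inflammatory fibroblast markers summed to 8458 and 3589 CPM in mural-like cells, with Mmp13 at 0 in tail suspension. Neutrophil markers summed to 5375 and 1583 CPM there, and erythroid markers to 2587 and 40.2 CPM. The part of RNA from these other cells in the mural-like values was not tested.

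In mural-like cells 4 of the 9 measured genes were more than 2-fold lower, beside 6.08% of 8452 genes, and 1 was more than 2-fold higher, beside 9.68%. Ccn5 was at 208 CPM (144 UMIs) in non-tail suspension and 20.5 CPM (25 UMIs) in tail suspension, a ratio of -3.34 (-4.01 to -2.72). Ccn2 was at 619 and 213 CPM (-1.54), Ccn1 at 694 and 322 CPM (-1.11) and Ccn3 at 125 and 62.4 CPM (-1.01). A single cell held 185 of the 429 Ccn2 UMIs in non-tail suspension. Without the richest cell of each library Ccn5 stayed past 2-fold at -3.58, whereas Ccn2 was at -0.94, Ccn1 at -0.99 and Ccn3 at -0.88. Amotl2 was higher, at 44.7 and 103 CPM (1.20, interval 0.62 to 1.82), and Tead1 was at 85.1 and 143 CPM (0.75, interval 0.31 to 1.20). Yap1 (0.26), Wwtr1 (0.00) and Ccn4 (-0.17) had intervals that held 0. The Ccn4 value depended on which cells were kept: it was -1.31 with cells of at least 500 genes, -1.27 with at least 1000, -1.32 with doublets kept and -3.02 with cell types from per-cell marker counts.

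In blood endothelial-like cells 2 of the 8 measured genes were more than 2-fold lower, beside 6.64% of 9712 genes, and none higher, beside 8.22%. Ccn1 was at 753 CPM (1087 UMIs) in non-tail suspension and 246 CPM (443 UMIs) in tail suspension (-1.61, interval -1.77 to -1.45), and at -1.59 without the richest cell of each library. Ccn2 was at 346 and 157 CPM (-1.13, interval -1.35 to -0.92), but 1 cell held 217 of its 499 UMIs in non-tail suspension, and without the richest cells the ratio was -0.48. In this class the 13 tendon fibroblast markers summed to 537 and 110 CPM, but sheath or lining markers to 292 and 2006 CPM and general fibroblast markers to 2879 and 4483 CPM. The part of fibroblast RNA in the Ccn2 value was not tested. Amotl2 was at 37.4 and 69.0 CPM (0.88, interval 0.41 to 1.37). Wwtr1 was at -0.48 (-0.65 to -0.30). Ccn3, at -0.70, turned to 0.85 without the richest cells, since 1 cell held 54 of its 73 UMIs. Lymphatic endothelial-like cells had Ccn1 at 3300 CPM in non-tail suspension, but on 10 cells, 1 of which held 255 of the 523 UMIs, and no ratio is drawn from them.

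Droplets also catch RNA that floats free, so levels in immune cells, where most of these genes are not expected, give a background. T cell-like cells, at median depths of 5376 and 3934 UMIs, had Ccn1 at 11.6 and 11.98 CPM, Ccn2 at 21.2 and 44.4 CPM and Ccn5 at 12.6 and 13.9 CPM in non-tail and tail suspension. These levels are far below those of the fibroblast lineage in both libraries, and none of the 3 genes was lower in tail suspension there. Ccn5 in blood endothelial-like cells, at 15.9 and 15.02 CPM, was at that background. In neutrophil-like cells Ccn5 stood at 21.3 CPM in non-tail suspension and 8.47 CPM in tail suspension, and Ccn2 at 34.8 and 33.9 CPM.

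To take depth out of the share of cells with a UMI, each cell was thinned to 1000 UMIs, which left out 53 and 238 shallower lineage cells. Before thinning, Ccn2 was seen in 84.5% and 61.5% of lineage cells, Ccn1 in 84.2% and 54.8% and Ccn5 in 84.8% and 52.6%. After it, Ccn2 was seen in 45.8% (43.6% to 48.0%) of 1937 cells in non-tail suspension and 27.99% (26.9% to 29.1%) of 6166 cells in tail suspension. Ccn5 was seen in 40.8% and 14.1%, Ccn1 in 35.0% and 18.9%, and Ccn4 in 10.2% and 3.6%. The share for Amotl2 was 8.67% and 8.60%, that for Yap1 3.46% and 2.90%, with overlapping intervals, and that for Tead1 was 5.83% and 7.82%. In thinned T cell-like cells Ccn2 was seen in 2.07% and 5.95%, Ccn1 in 1.754% and 1.98% and Ccn5 in 1.59% and 1.89%, and Ccn4, at 3.99% and 2.36%, was not far below its lineage share in tail suspension.

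**Figure D4:**
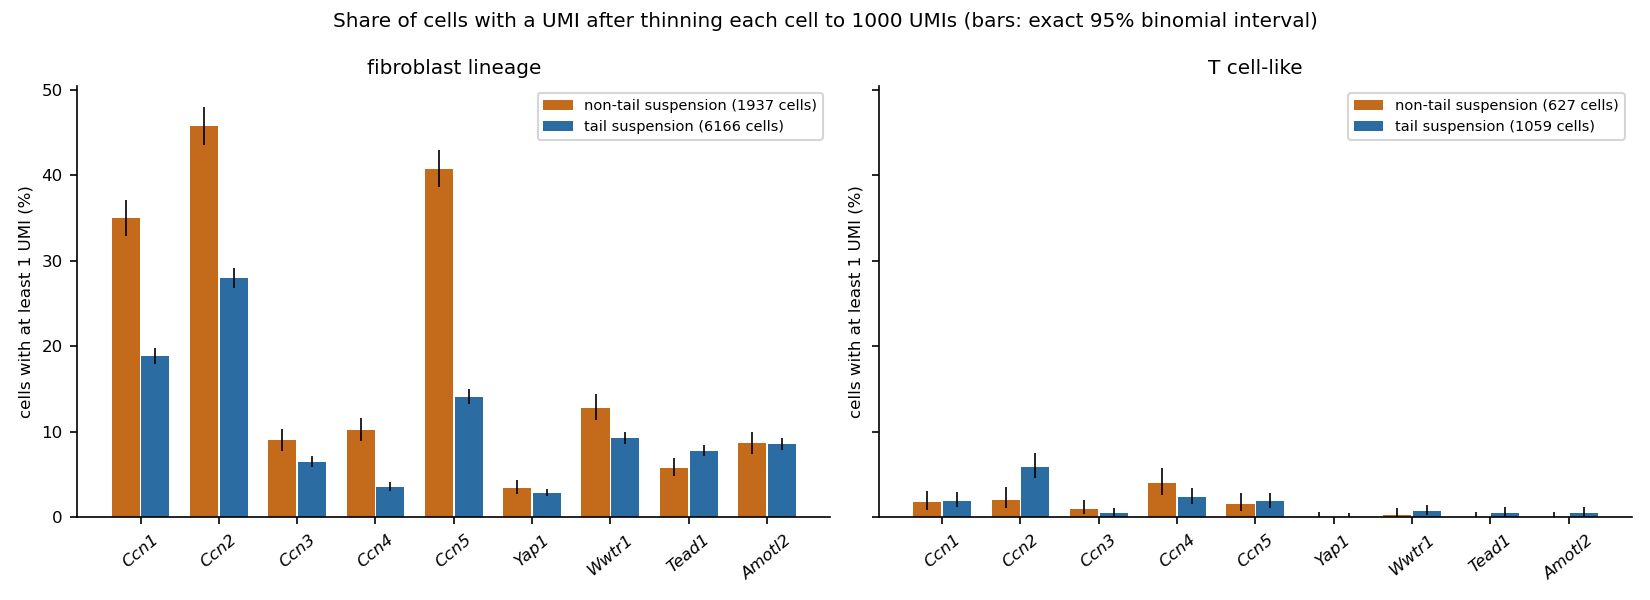
Share of cells with at least 1 UMI (vertical axis, percent) after each cell was thinned to 1000 UMIs, in the fibroblast lineage and in T cell-like cells as background, with exact 95% binomial intervals. Ccn2, Ccn5 and Ccn1 are seen in 45.8%, 40.8% and 35.0% of lineage cells in non-tail suspension and in 27.99%, 14.1% and 18.9% in tail suspension, and all background shares are below 6%.

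The CCN signal was spread unevenly over cells. In cells thinned to 2000 UMIs, the richest 10% of lineage cells (190 and 581 cells) held 46.7% of the Ccn2 UMIs in non-tail suspension and 61.6% in tail suspension. At least 5 Ccn2 UMIs were seen in 22.2% and 7.73% of cells. For Ccn5 the richest 10% held 41.3% and 58.3%, and 7.75% and 0.14% of cells had at least 5 UMIs. Such shares were not particular to the CCN genes. The richest 10% held 52.7% and 62.7% of the Wwtr1 UMIs and 65.9% and 68.6% of the Amotl2 UMIs. Both of these genes had fewer UMIs than Ccn2 and Ccn5, and the part of the level in these shares was not tested.

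In the pooled lineage Ccn1 was seen more often in cells with the immediate-early gene Egr1 than in cells without it, and Ccn2 differed less. After thinning to 2000 UMIs, Ccn1 was present in 59.3% of lineage cells with Egr1 and 28.3% of those without it in non-tail suspension. In tail suspension the shares were 38.5% and 12.4%. Ccn2 was present in 60.0% of cells with Egr1 and 55.3% of those without in non-tail suspension, and in 36.6% and 44.4% in tail suspension. In tail suspension the shares were 37.9% and 45.7% in cluster 1 but 62.2% and 53.1% in cluster 20, with overlapping intervals in each. Over the pooled lineage Ccn1 and Ccn2 were themselves only loosely tied. Ccn2 was in 60.9% of cells with Ccn1 and 56.7% of those without in non-tail suspension, and in 40.7% and 38.3% in tail suspension. These pooled shares mix clusters with different Ccn2 levels. In cluster 19 they were 77.8% and 44.7% in non-tail suspension, on 65 cells with overlapping intervals, and 43.5% and 33.6% in tail suspension. In cluster 20 they were 76.5% and 80.0% in non-tail suspension and 61.0% and 57.2% in tail suspension. These shares describe cells within single libraries, whose count of cells is not a count of replicates. Egr1 itself was at 1458 and 1605 CPM in the lineage (0.14). In the 3 clusters where Ccn1 was past 2-fold, Egr1 was also lower, at -0.29 in cluster 0, -0.24 in cluster 19 and -0.37 in cluster 20. These clusters were picked by their Ccn1 ratio, and the Egr1 ratios of the other clusters are not reported here. Whether the 2 genes shift together over clusters was not tested. In blood endothelial-like cells, where Ccn1 was past 2-fold too, Egr1 was higher, at 708 and 979 CPM (0.47, interval 0.36 to 0.58).

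The other genes of the pathway, from lists that exclude the 10 genes, had medians near or above that of all genes in the pooled lineage. Of 18 further YAP/TAZ targets, 12 were higher and 6 lower in the lineage, beside 55.2% and 44.8% of all genes. Their median was 0.06, close to the 0.07 of all genes. Within the 8 clusters the median of this list lay between 0.04 (cluster 22) and 0.41 (cluster 19). In the pooled lineage Igfbp3, a binding protein of insulin-like growth factors, was more than 2-fold higher, at 55.4 and 381 CPM (2.78). So was the transcription factor Foxf2, at 0.50 and 1.45 CPM (1.54), beside 11.1% of all genes. None of the 18 was more than 2-fold lower in the pooled lineage, beside 6.00%. Within each cluster 1 to 3 of the 14 to 18 measured were more than 2-fold lower, beside 5.89% to 10.2% of its genes. From 0 to 3 were more than 2-fold higher, beside 6.59% to 16.9%. Igfbp3 is also a leading gene of clusters 19 and 22, which held few cells in non-tail suspension. Of 22 Hippo kinases and regulators, 15 were higher and 7 lower, with a median of 0.29 (Lats2, Amotl1 and Ptpn14 are in both lists), and between 0.07 and 0.63 within clusters. The LIM protein Ajuba (3.68 and 1.35 CPM, -1.45) and the atypical cadherin Dchs1 (14.3 and 6.59 CPM, -1.12), an upstream Hippo input, were more than 2-fold lower. These are 2 of 22, beside 6.00% of all genes, and none was more than 2-fold higher, beside 11.1%. The 5 measured of 6 other TEAD and VGLL genes ranged from -0.56 to 0.995, with a median of 0.11. Within clusters, on 3 to 5 measured genes, their median lay between -0.37 (cluster 22) and 0.37 (cluster 25). In cluster 20 it was -0.30, where the median of all genes was 0.18.

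The 12 receptors and co-receptors that bind CCN proteins had 9 higher and 3 lower ratios, with a median of 0.17, and between -0.18 (cluster 19) and 0.40 (cluster 25) within clusters. The laminin-receptor integrin chain Itga6 was more than 2-fold higher, at 3.48 and 21.1 CPM (2.60). It was the 1 of the 12 past 2-fold in the pooled lineage, beside 11.1% of all genes higher and 6.00% lower. Contractile genes had low ratios in the pooled lineage and less low ones within clusters. Of 15 measured SRF and actin genes 11 were lower and 4 higher, with a pooled median of -0.52. Within clusters the median was nearer to 0, from -0.27 in cluster 4 to 0.32 in cluster 19, and -0.03 in cluster 0. It was below 0 in every cluster but cluster 19. Acta2, the smooth muscle actin, was at 52.3 and 10.8 CPM (-2.28), the myosin light chain Myl9 at 11.7 and 3.16 CPM (-1.88) and the tropomyosin Tpm2 at 139 and 37.8 CPM (-1.88). In the pooled lineage 5 of the 15 were more than 2-fold lower, beside 6.00% of all genes, and none higher, beside 11.1%. Within each cluster 1 to 4 were more than 2-fold lower, beside 5.89% to 10.2% of its genes. At most 1 was more than 2-fold higher, beside 6.59% to 16.9%. Cluster 4 had 4 of 14 measured genes lower and none higher. In mural-like cells the same list had 11 higher and 5 lower ratios and a median of 0.30.

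Of 21 immediate-early genes that tissue digestion can induce, 14 were lower and 7 higher in the lineage, with a median of -0.24. Clusters differed: the median was -0.66 in cluster 20 and -0.65 in cluster 0, but 0.23 in cluster 4 (13 higher, 8 lower) and 0.34 in cluster 21 (14 higher, 7 lower). In the pooled lineage Jund was at 1160 and 478 CPM (-1.28), Dusp1 at 1147 and 479 CPM (-1.26) and Klf2 at 618 and 280 CPM (-1.14), while the heat shock gene Hspa1b was at 20.01 and 41.1 CPM (1.04). In all, 5 were more than 2-fold lower, beside 6.00% of all genes, and 1 higher, beside 11.1%. In mural-like cells 19 of the 21 were lower, with a median of -0.57. Ccn1 is itself such an early gene, and the part of digestion in its ratio was not tested. The 12 listed genes of the TGF-beta response, a pathway that induces Ccn2, had a pooled median of -0.35, and within clusters from -0.33 in cluster 20 to 0.24 in cluster 1, where 7 were higher and 5 lower. In the pooled lineage Cthrc1 was at 854 and 211 CPM (-2.02) and the collagen gene Col1a1 at 14638 and 5236 CPM (-1.48). Both are also leading genes of cluster 0, which held 44.1% of lineage cells in non-tail suspension and 1.97% in tail suspension.

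**Figure D5:**
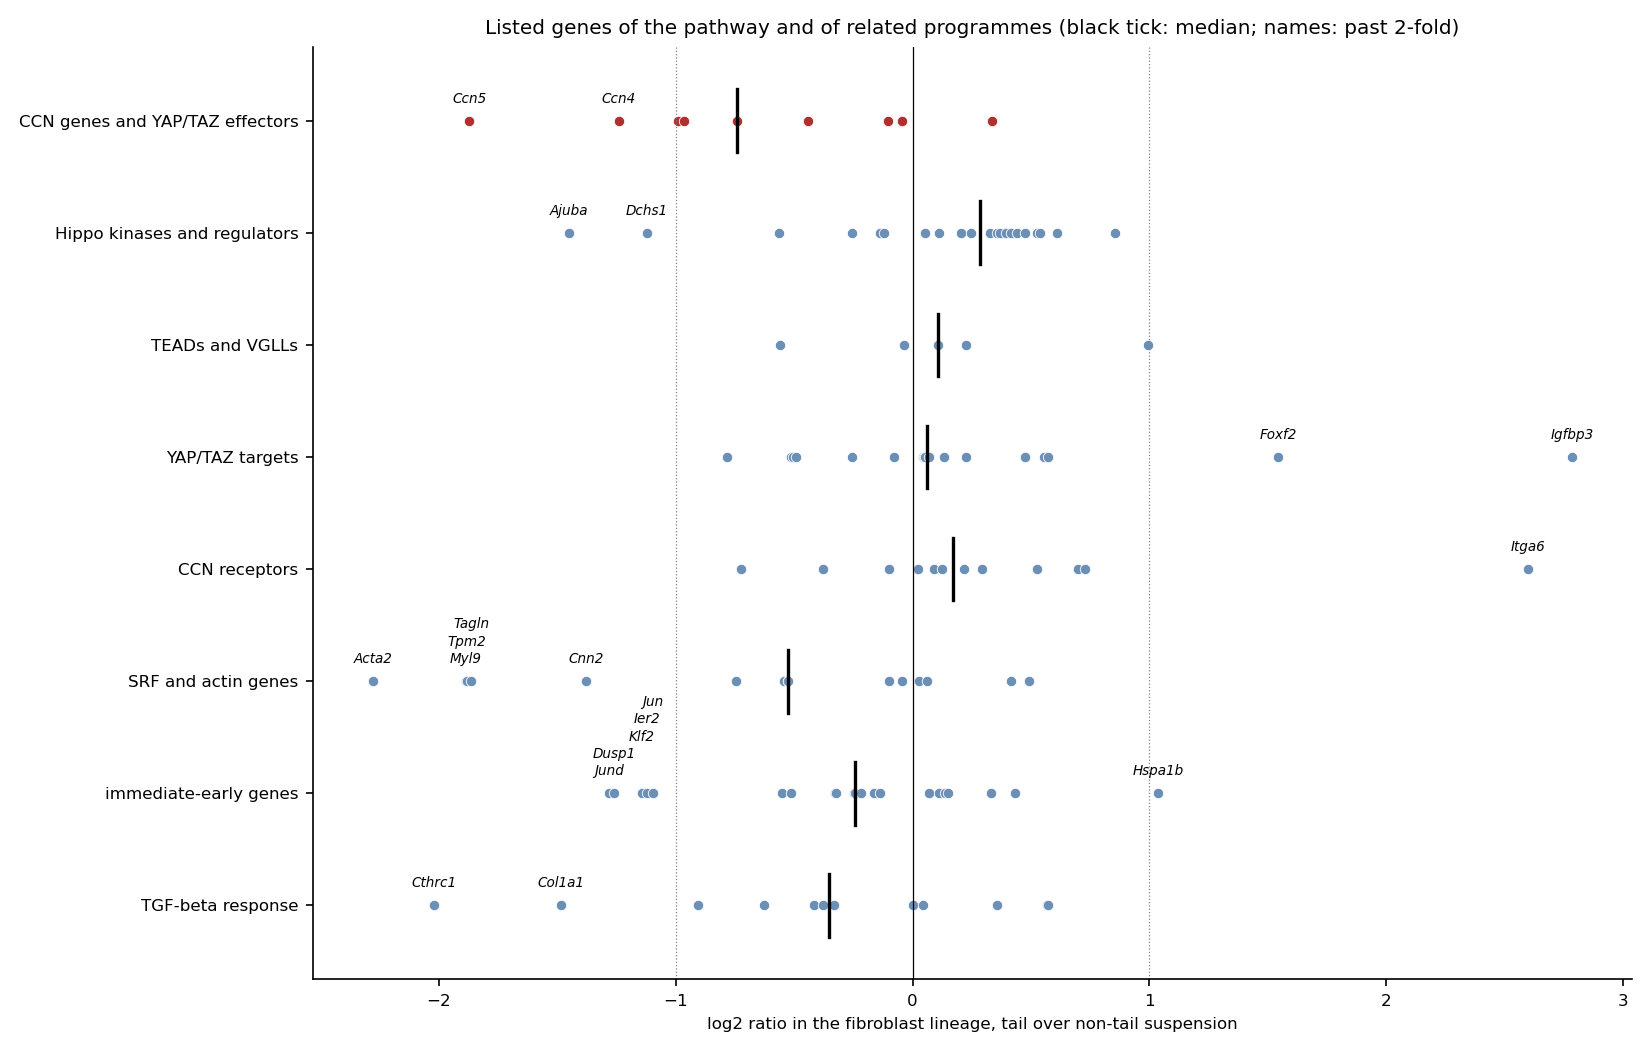
Log2 ratio in the fibroblast lineage (horizontal axis) for 9 of the CCN genes and YAP/TAZ effectors (red, without Ankrd1, at 4.51) and for the genes of 7 lists (blue), 1 point per gene with at least 20 UMIs; black ticks are medians and dotted lines 2-fold. The tick of the 18 further YAP/TAZ targets is at 0.06, that of the SRF and actin genes at -0.52 and that of the immediate-early genes at -0.24.

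Over 23 profiles of stromal and vessel clusters by library with at least 50 cells each, the 10 genes did not form 1 block. Pearson's r of log2(CPM + 1) was 0.76 for Ccn2 with Ccn4, 0.67 for Ccn2 with Ccn5, 0.61 for Ccn1 with Ccn3 and 0.59 for Yap1 with Wwtr1. It was 0.21 for Ccn1 with Ccn2 and -0.52 for Wwtr1 with Ccn4. The profiles share libraries and depth, so these values only describe likeness. Among 11065 genes, the most alike to Ccn2 were Ldlrad4 (0.89), Nr4a2 (0.87) and Dpy19l3 (0.86). For Ccn5 they were Kcnd1 (0.92), Efemp2 (0.91) and P4ha3 (0.91), and for Ccn4 Ikbip, Slc19a1 (0.92 each) and Tnc (0.91). Ccn1 was most like Kptn, Fbln5 (0.85 each) and Ctps (0.84), and Ccn3 most like Tbc1d12 (0.89), Poglut3 (0.85) and Dlgap4 (0.83). For Wwtr1 they were Slc9a3r2 (0.88), Abca3 (0.87) and Rhob (0.85), and for Yap1 Itga1 (0.87), Slc12a2 (0.84) and Fnbp1l (0.80). Among the genes most alike to Amotl2 were Galnt17 and Gm42679 (0.85 each), and Tead1 was most like Thap12, Romo1 (0.79 each) and St13 (0.78). Ankrd1 had too few UMIs for this.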

How the data were processed

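Droplet RNA sequencing gave 1 library per group. The deposited values are raw UMI counts per gene and barcode. Cell Ranger 5.0.1 and GRCm38 appear in the submitters' processing notes without their roles, and whether the libraries were brought to equal depth is not given in the sources used here. They held 11430 and 15545 barcodes with means of 10662 and 10718 UMIs. The 2 libraries share 47 barcode sequences.

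Barcodes under 300 genes or above 20% mitochondrial UMIs were left out. Doublets were called with Scrublet in scanpy 1.11.5. Its automatic threshold marked 0 cells in non-tail suspension, so, after seeing this, the threshold of the other library (0.39) was used for both, which removed 128 (1.17%) and 492 (3.40%) cells, below the expected 9.14% and 12.4%, so doublets may remain. Cells were clustered together (2000 variable genes in all, ranked within each library, without the 10 genes, 30 principal components, 15 neighbours, Leiden resolution 1.0). Clusters were named "X-like" by the class with most markers among the top 10 and then top 50 genes, with at least 3, a scoring set after seeing the data. Cell types annotated by the authors were not used here. Cluster 15, proliferating, and cluster 29, with 7 cells in non-tail suspension, are not compared.

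UMIs were summed per class and library and divided by the class total (CPM). A gene counts as measured with at least 20 UMIs over both libraries, and "past 2-fold" means a log2 ratio of at least 1 in size. Intervals are exact 95% (Poisson, conditional binomial, Clopper-Pearson). Cells are not replicates, so no p-value is given. The scripts were tested on simulated data. Genes outside the 10 were named by a rule: per list, up to 3 at either end past 2-fold with at least 100 UMIs, and per gene the 3 most alike, of which 1 for Amotl2 is not reported here. The genes and lists were chosen with earlier results of these data known. Of 32285 gene IDs, 32158 matched GENCODE vM21, which gave positions, and promoters are RefSeq's. Alternatives are in the closing section.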

Additional observations from a re-analysis of the deposited data

Results flagged for a closer look

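Ccn3 was singled out because 2 fibroblast clusters went opposite ways with intervals clear of 0. Its log2 ratio was 0.83 in cluster 1 and -2.74 in cluster 20. The difference between the clusters was not tested. In cluster 20 a single non-tail suspension cell held 101 of 108 UMIs, and without the richest cell of each library the ratio was 0.86 (-0.24 to 2.22), the same sign as in cluster 1.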

How the results depend on the processing

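Alternatives were listed beforehand, except for leaving out clusters 0, 20 or 25 or adding cluster 15, which were chosen after seeing the data. Of 482 alternative values for single genes, 309 stayed within the interval of the value reported, 172 moved beyond it and 1 value past 2-fold turned its sign, that of Ccn2 in blood endothelial-like cells, at 0.22 with cell types from per-cell marker counts (the cause was not tested). Of 138 alternative counts, 113 stayed within 1.5 times. Lineage genes more than 2-fold lower, 2 as reported, numbered 4 with median-of-ratios scaling, with means over cells and with cells thinned to 2000 UMIs. Those higher, 1 as reported, numbered 0 with a minimum of 100 UMIs, with cells thinned to 1000 or 2000 UMIs, with the mean within clusters and without cluster 20. Mural-like genes lower, 4 as reported, numbered 0 and 1 with cells thinned to 1000 and 2000 UMIs. Those higher, 1 as reported, numbered 0 with means over cells, both thinnings, at least 500 or 1000 genes, doublets kept and resolution 0.5. Blood endothelial-like genes lower, 2 as reported, numbered 1 with means over cells, both thinnings and per-cell markers, and those higher, 0 as reported, numbered 1 with means over cells and with 1 UMI in each library as the minimum. In the pooled lineage YAP/TAZ targets higher, 2 as reported, numbered 1, and those lower, 0 as reported, numbered 1, with cells thinned to 1000 UMIs. In the lineage the ratio kept its sign in 20 of 20 alternatives for Ccn1 (-1.04 to -0.56), Ccn2 (-1.27 to -0.74), Ccn4 (-1.63 to -0.27), Ccn5 (-2.11 to -1.42), Wwtr1 (-0.52 to -0.11) and Tead1 (0.19 to 0.47), and in 19 of 20 for Ccn3 and Yap1. No paired analysis was possible because there is 1 library per group, and no library could be left out. Depth limits Ankrd1 and the vessel classes, where thinning leaves few UMIs.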

Other observations

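Ccn4 was seen in T cell-like cells above other immune cells, which carry little of it. It stood at 34.8 CPM in non-tail suspension and 18.5 CPM in tail suspension, against 2.73 and 4.03 CPM in B cell-like cells, 2.42 and 2.95 CPM in neutrophil-like cells and 1.73 and 4.04 CPM in macrophage-like cells. Ccn1, Ccn2 and Ccn5 showed no such gap between T cell-like and B cell-like cells.

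Ccn6, the remaining CCN gene, was nearly absent from the fibroblast lineage, with 16 UMIs in non-tail suspension and 11 in tail suspension. Of these, 6 and 4 were in the tendon-like cluster 20, which also held most Ankrd1 UMIs.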
